A study of Equus caballus with 40 samples.

Results

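The 5 genes described here, ADAMTS1, ADAMTS2, ADAMTS4, ADAMTS7 and ADAMTS12, encode secreted zinc proteases of the ADAMTS family. They were chosen by symbol from the platform annotation, where each had 1 probe set, out of 16661 genes with a named probe set on 30559 probe sets in all. The family member ADAMTS5, the best known aggrecan cleaving enzyme of cartilage, was not among the 5 and is used for comparison. Horse cartilage cells were kept as 3D pellets, in which chondrocytes surround themselves with their own matrix. All pellets but the controls were first stimulated for 48 h with the inflammatory cytokine IL-1β (interleukin-1β, recombinant equine protein at 5 ng/ml). Of the stimulated pellets, 3 sets then received a serum treatment, namely AES (autologous equine serum), the condition that the labels call AES24h, or ACS (autologous conditioned serum), and 1 set stayed on IL-1β alone. Control pellets had neither IL-1β nor serum. The labels neither explain AES24h nor give serum doses, and every pellet with serum also had IL-1β. Pellets were harvested 48 h or 2 h after treatment, which gave 10 groups of 4 arrays.

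ADAMTS enzymes are made as inactive proforms, are mostly activated by furin-like convertases, and cut large molecules of the extracellular matrix. As known mainly from human and mouse work, ADAMTS4 and ADAMTS1 cut the large proteoglycans aggrecan and versican, which hold water in cartilage and in looser tissues. ADAMTS2 removes the amino-terminal propeptide from fibrillar procollagens so that collagen fibrils can form. ADAMTS7 and ADAMTS12 cut cartilage oligomeric matrix protein (COMP), a bridge between matrix proteins. Tissue inhibitor of metalloproteinases 3 (TIMP3) is the main natural inhibitor of the aggrecan cleaving members. No genome or sequence table was used, so no positions or sequences are given.

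Total RNA was measured on whole-transcript arrays, 1 log2 signal per probe set and array. Array medians lay between 4.35 and 4.59, and arrays of 1 group correlated with each other at 0.962 to 0.984 over all probe sets. The lowest median correlations of an array with its own group were those of the AES arrays at 48 h, 0.963 to 0.965, and of AES24h array 1 at 2 h, 0.964. Of 13 measured chondrocyte markers 11 had means above every array median, the exceptions being MATN1 and MATN3 at 4.41 or below, against 0 of 6 endothelial, 1 of 7 leukocyte, 1 of 3 synovial lining, 2 of 4 red cell and platelet, 2 of 4 bone and 3 of 6 fat and muscle markers. Whether replicates are separate horses or cultures is not in the labels. The p-values therefore cover the spread among these samples alone, which may be technical, and the number of arrays limits the precision. In whole pellets, fewer cells of a type and less RNA per cell cannot be told apart.

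At 48 h, ADAMTS1 and ADAMTS7 were higher in serum-treated pellets than in pellets with IL-1β alone, while ADAMTS4, ADAMTS2 and ADAMTS12 did not pass the test. Averaged over the 3 serum treatments, ADAMTS1 rose 3.51-fold and ADAMTS7 1.66-fold over IL-1β alone. IL-1β alone changed 0 of the 5 genes against control at either time by limma, with 1 at an unadjusted p under 0.05 at 48 h (ADAMTS4) and 2 at 2 h (ADAMTS1 and ADAMTS7, of which ADAMTS7 passed under some other settings). Against control at 48 h, ADAMTS1 and ADAMTS7 rose with each of the 3 serum treatments, ADAMTS4 rose with ACS, and ADAMTS12 fell with ACS. The plot of every array shows these levels.

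**Figure D1:**
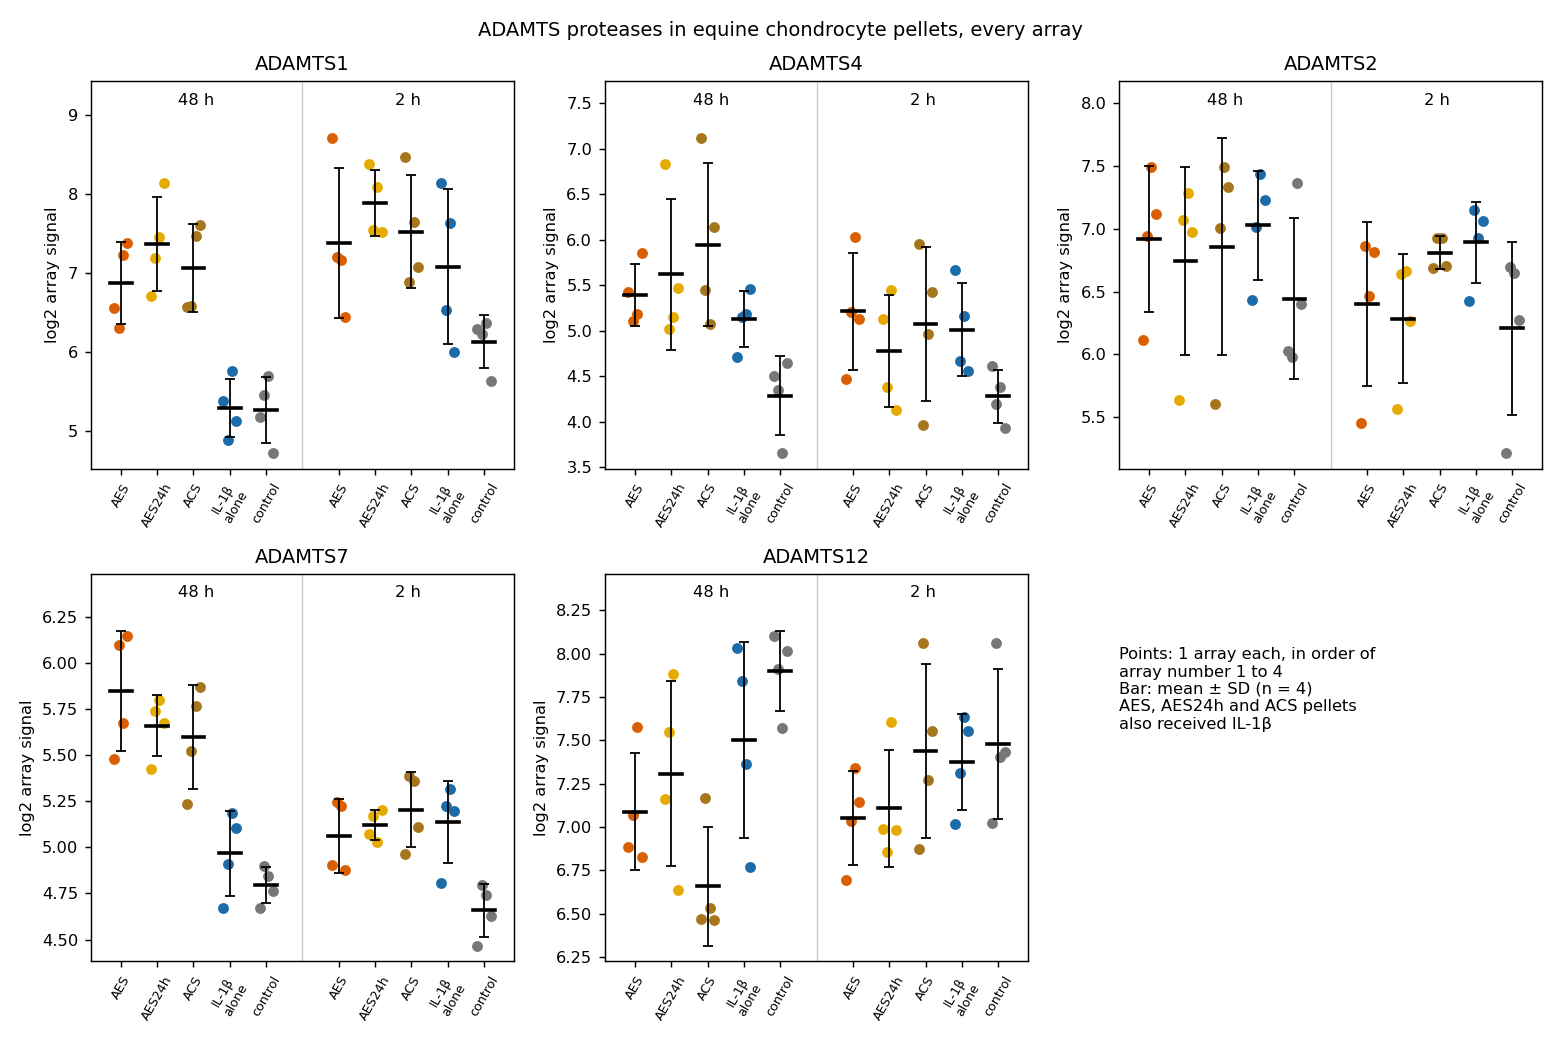
Log2 array signal of the 5 genes (y axis) in the 5 treatments, at 48 h on the left and 2 h on the right of each panel. Points are single arrays, and bars are the mean and SD of 4 arrays. At 48 h the 12 serum arrays of ADAMTS1 (6.30 to 8.13) lie above the 4 arrays with IL-1β alone (4.89 to 5.75), and the ADAMTS12 arrays with ACS lie below the control arrays.

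A gene was called changed in a comparison where limma's two-sided p was under 0.05 after Benjamini-Hochberg adjustment across the 30559 probe sets. At 48 h, limma called 1 of the 5 genes with AES against IL-1β alone, where 0.442% of all probe sets were called. It called 2 of 5 with AES24h (0.226% of all probe sets), 0 of 5 with ACS (0.262%) and 2 of 5 for the mean of the 3 serum treatments (0.733%). For ACS, 3 of the 5 had an unadjusted p under 0.05. These 4 comparisons share the arrays with IL-1β alone. For IL-1β alone against control, 0 of 5 were called where 1.26% of all probe sets were called.

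At 2 h, limma called 0 of the 5 genes with AES, with AES24h, with ACS or for their mean against IL-1β alone, and 0 had an unadjusted p under 0.05 in any of the 4. The shares of all probe sets called were 0.0164%, 0.0229%, 0.0262% and 0.0458%, so few probe sets of any kind passed. For IL-1β alone against control at 2 h the count was 0 of 5, where 4.52% of all probe sets were called. The median log2 fold change of the 5 genes was 0.68 there, beside 0.04 over all probe sets.

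ADAMTS1, a protease of versican and aggrecan, read 6.55, 6.30, 7.22 and 7.38 in AES arrays 1 to 4 at 48 h. With AES24h it read 6.71, 7.18, 7.45 and 8.13, and with ACS 6.57, 6.58, 7.47 and 7.60. Arrays with IL-1β alone read 5.38, 4.89, 5.75 and 5.12, against 5.17, 5.45, 5.69 and 4.72 in control. Every serum array lay above every array with IL-1β alone and every control array, while IL-1β alone and control overlapped.

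The difference of ADAMTS1 from IL-1β alone at 48 h was largest with AES24h, a log2 fold change of 2.08 (SE 0.42, limma adjusted p = 0.0158). With ACS it was 1.77 (SE 0.42, limma adjusted p = 0.0541) and with AES 1.58 (SE 0.42, limma adjusted p = 0.0754), neither past the threshold. The mean over the 3 serum treatments was 1.81 (95% interval 1.12 to 2.50, limma adjusted p = 0.00352), with 12 of 12 serum arrays above the mean of IL-1β alone. This call held without any 1 array. The AES24h call was lost without AES24h array 3 (adjusted p = 0.0545) or 4 (0.12), or without IL-1β array 2 (0.0988) or 4 (0.0575). ACS passed without ACS array 2 (0.0468), with array weights (0.0169), the upper 60% of probe sets (0.0336) and renewed quantile normalisation (0.0453), and AES passed with the last 2 settings (0.0483 and 0.0445). Both also passed with the replicate number as a block (ACS 0.0161, AES 0.0259).

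Against control at 48 h, ADAMTS1 rose with AES by 1.61 (limma adjusted p = 0.0121), with AES24h by 2.11 (0.00119) and with ACS by 1.80 (0.00637). Mean levels were 7.37 ± 0.60 with AES24h, 7.05 ± 0.56 with ACS and 6.86 ± 0.52 with AES, against 5.29 ± 0.37 with IL-1β alone and 5.26 ± 0.42 in control (SD, n = 4 each). Neighbours within the serum treatments, and IL-1β alone and control, differed by less than their spread. The fold change of IL-1β alone over control was 0.03 (95% interval −0.82 to 0.88) and turned to −0.01 and −0.03 under renewed quantile normalisation and median centring. The AES call was lost without AES array 4 (adjusted p = 0.0637), without control array 4 (0.0578), or without AES arrays 2 and 4 together (0.0981).

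At 2 h, ADAMTS1 read 8.13, 6.52, 7.63 and 6.0 with IL-1β alone, against 6.29, 6.22, 6.36 and 5.63 in control, so that 2 arrays stood high and 2 near control. The log2 fold change was 0.95 (SE 0.42), with 3 of 4 arrays above the control mean, and did not pass (limma adjusted p = 0.267). Array 1 was the highest of its group in AES (8.70), AES24h (8.38) and ACS (8.47) at 2 h as well. Other AES arrays read 7.20, 7.15 and 6.44, other AES24h arrays 7.54, 8.08 and 7.52, and other ACS arrays 6.88, 7.65 and 7.07.

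All serum arrays of ADAMTS1 at 2 h lay above all control arrays. Against control, AES24h gave 1.75 (SE 0.42, limma adjusted p = 0.00601), ACS 1.39 (SE 0.42, adjusted p = 0.0362) and AES 1.25 (SE 0.42, adjusted p = 0.0638). The ACS call was lost with arrays centred on their medians (adjusted p = 0.0625) and without any 1 of 6 arrays, which were ACS arrays 1 (0.159) and 3 (0.0868) and control arrays 1 (0.0677), 2 (0.0585), 3 (0.0584) and 4 (0.118). The AES difference of ADAMTS1 passed without AES array 4 (0.0251), in the upper 60% of probe sets (0.0437) and with the replicate number as a block (0.0305).

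With IL-1β alone, ADAMTS1 averaged 5.29 at 48 h and 7.07 at 2 h, and the 4 arrays at 48 h lay below the 4 at 2 h. That difference of −1.79 (SE 0.42) did not pass over all probe sets (limma adjusted p = 0.155), and it passed with array weights (0.0404). The other 4 treatments differed between the times by −0.87 to −0.46, not called. The mean serum effect was 1.29 larger at 48 h than at 2 h (95% interval 0.31 to 2.27), and that difference between the times was not called either (limma adjusted p = 0.481).

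ADAMTS4, an aggrecan cleaving enzyme known to respond to inflammatory cytokines, was lowest in control pellets. The median of each array exceeded its control means of 4.29 at 48 h and 4.28 at 2 h, and signal over background was not tested, so differences from control give a direction and no exact fold. At 48 h it read 5.42, 5.11, 5.18 and 5.86 with AES, 6.83, 5.02, 5.15 and 5.47 with AES24h, and 7.11, 5.45, 5.07 and 6.14 with ACS. Arrays with IL-1β alone read 4.72, 5.15, 5.18 and 5.46, against 4.50, 4.35, 3.66 and 4.64 in control. Each of the 4 IL-1β-treated groups lay wholly above control, and these 4 groups overlapped one another, with array 1 the highest in AES24h and ACS.

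Of these groups ACS was called against control for ADAMTS4, at a log2 fold change of 1.66 (SE 0.41, limma adjusted p = 0.0115). AES24h gave 1.33 (adjusted p = 0.0646), AES 1.10 (adjusted p = 0.0922) and IL-1β alone 0.84 (SE 0.41, adjusted p = 0.501), not called. The ACS call was lost without ACS array 1 (1.27, adjusted p = 0.0917), without control array 3 (1.45, adjusted p = 0.0556), and with the spread estimated from just the compared groups (adjusted p = 0.0674). AES24h passed without AES24h array 2 (adjusted p = 0.0464), in the upper 60% of probe sets (0.0414) and with the replicate number as a block (0.0305). AES passed with the spread estimated from just the compared groups (0.0423). Against IL-1β alone the serum treatments differed by 0.82 with ACS, 0.49 with AES24h and 0.27 with AES, and their mean by 0.53 (95% interval −0.15 to 1.20, adjusted p = 0.787).

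At 2 h, ADAMTS4 averaged 5.21 ± 0.64 with AES, 4.78 ± 0.62 with AES24h, 5.08 ± 0.84 with ACS and 5.01 ± 0.51 with IL-1β alone, against 4.28 ± 0.29 in control (SD, n = 4 each). All 4 groups overlapped control. ACS array 2 read 3.97, near the lowest control array at 3.93, while ACS array 1 read 5.96. The fold change of IL-1β alone over control was 0.73 (SE 0.41, limma adjusted p = 0.452). The mean serum difference from IL-1β alone was 0.01 (95% interval −0.67 to 0.69).

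ADAMTS2, the procollagen N-proteinase, was not called in any comparison made. At 48 h it averaged 6.92 ± 0.58 with AES, 6.74 ± 0.75 with AES24h and 6.86 ± 0.86 with ACS, against 7.03 ± 0.43 with IL-1β alone and 6.44 ± 0.64 in control (SD, n = 4 each). The mean serum difference from IL-1β alone was −0.19 (95% interval −0.85 to 0.47, limma adjusted p = 0.967). At 2 h the averages were 6.40 ± 0.65 with AES, 6.28 ± 0.51 with AES24h and 6.81 ± 0.13 with ACS, against 6.89 ± 0.32 with IL-1β alone and 6.21 ± 0.69 in control. IL-1β alone exceeded control by 0.59 at 48 h (adjusted p = 0.682) and by 0.68 at 2 h (adjusted p = 0.482), with 3 of 4 and 4 of 4 arrays above the control mean. Under the other settings with all arrays kept, limma's adjusted p ran from 0.219 to 0.73 at 48 h. At 2 h it ran from 0.057 to 0.513, close to the threshold at its lowest and not called. Each treatment overlapped control at both times, and at 2 h the AES24h arrays (5.57 to 6.67) lay just below the ACS arrays (6.69 to 6.93).

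The spread of ADAMTS2 followed the array number. Array 1 was the lowest of its group in 9 of 10 groups, and the number accounted for 73.2% of the variance within groups. With ACS at 48 h, arrays 1 to 4 read 5.60, 7.0, 7.50 and 7.33, and in control at 2 h they read 5.22, 6.70, 6.65 and 6.27. ADAMTS7 showed this too, with array 1 the lowest in 8 of 10 groups and 57.4% of the within-group variance on the number. For ADAMTS1, ADAMTS4 and ADAMTS12 the number accounted for 23.5%, 21.7% and 22.1%. Fitting the number lowers the residual degrees of freedom from 30 to 27, so part of any such share comes from noise. The share was not computed for other genes. Over all probe sets 36 of 40 arrays deviated most like their own number, so a pattern by number was not particular to these genes. The labels do not say what the numbers stand for.

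**Figure D2:**
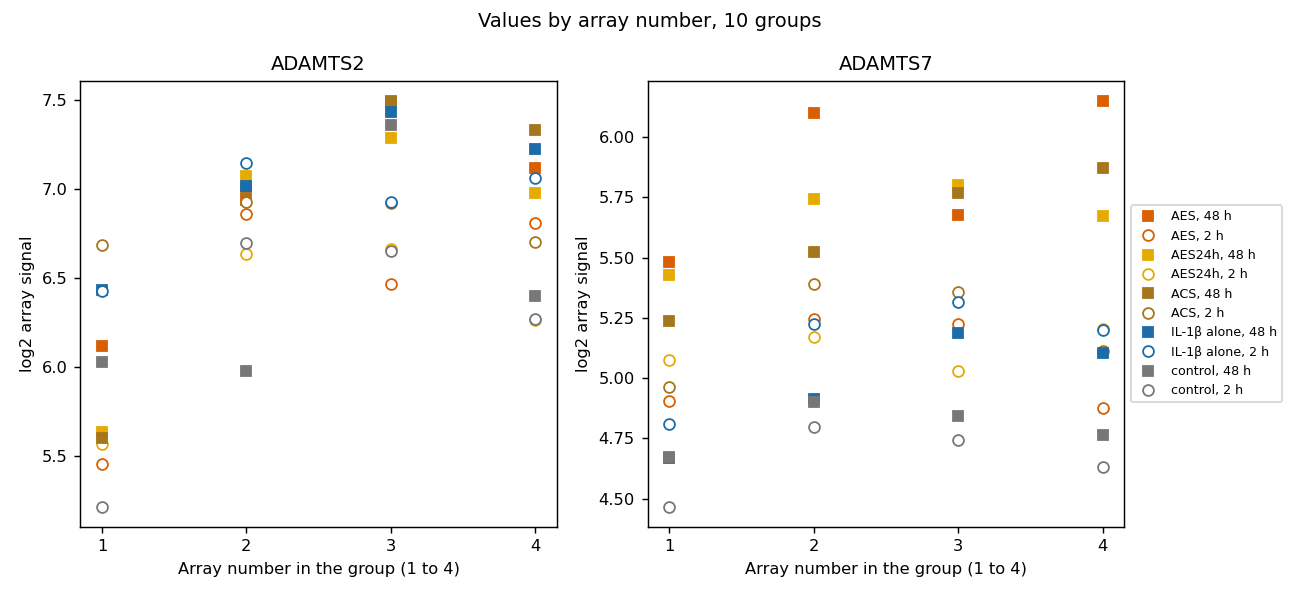
Log2 array signal of ADAMTS2 and ADAMTS7 (y axis) against the replicate number of the array (x axis), with squares for 48 h, circles for 2 h and colours for treatments. Array 1 lies lowest in 9 of 10 groups for ADAMTS2 and in 8 of 10 for ADAMTS7.

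ADAMTS7, a COMP cleaving protease, had the narrowest spread of the 5 within groups (SD 0.21, against 0.40 to 0.63) and rose with serum at 48 h. It read 5.48, 6.10, 5.68 and 6.15 with AES, 5.43, 5.74, 5.80 and 5.67 with AES24h, and 5.24, 5.52, 5.77 and 5.87 with ACS. Arrays with IL-1β alone read 4.67, 4.91, 5.19 and 5.10, against 4.67, 4.90, 4.84 and 4.76 in control. All 12 serum arrays lay above all arrays with IL-1β alone and all control arrays. IL-1β alone and control overlapped.

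The difference of ADAMTS7 from IL-1β alone at 48 h was 0.88 with AES (SE 0.16, limma adjusted p = 0.00386), 0.69 with AES24h (adjusted p = 0.0433) and 0.63 with ACS (adjusted p = 0.0733, not called). The mean over the serum treatments was 0.74 (95% interval 0.48 to 0.99, limma adjusted p = 0.0016), a call that held without any 1 array. The AES call also held without any 1 array but not without AES arrays 2 and 4 together, the 2 highest (0.61, adjusted p = 0.287). The AES24h call was lost without AES24h array 2 (0.129), 3 (0.134) or 4 (0.134), or without IL-1β array 1 (0.164), 2 (0.153) or 4 (0.0699). The ACS difference passed without ACS array 1 (0.037), with median centring (0.0196), array weights (0.0245), renewed quantile normalisation (0.0436) and the upper 60% of probe sets (0.0469). It also passed with the replicate number as a block (0.0043). With the spread estimated from just the compared groups, neither AES (adjusted p = 0.265) nor AES24h (0.227) passed.

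Against control at 48 h, ADAMTS7 rose by 1.06 with AES (limma adjusted p = 1.39e-05), 0.87 with AES24h (0.000357) and 0.81 with ACS (0.000836). The fold change of IL-1β alone over control was 0.17 (95% interval −0.14 to 0.49). Mean levels were 5.85 ± 0.32 with AES, 5.66 ± 0.16 with AES24h and 5.60 ± 0.28 with ACS, against 4.97 ± 0.23 with IL-1β alone and 4.80 ± 0.10 in control (SD, n = 4 each).

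At 2 h the order of ADAMTS7 differed, with control alone at the low end. Arrays with IL-1β alone read 4.81, 5.23, 5.32 and 5.20, against 4.47, 4.80, 4.74 and 4.63 in control. The 2 groups did not overlap, and the difference of 0.48 (SE 0.16) did not pass (limma adjusted p = 0.0737). It passed without IL-1β array 1 (adjusted p = 0.0294), with array weights (0.00802), with the replicate number as a block (0.00803) and in the upper 60% of probe sets (0.0484). Against control, ACS arrays (4.96, 5.39, 5.36 and 5.11) gave 0.55 (adjusted p = 0.0255), AES24h 0.46 (adjusted p = 0.0735) and AES 0.40 (adjusted p = 0.118), and the 3 serum groups lay wholly above control. With array weights AES24h (0.0341) and AES (0.0494) passed, and AES24h also in the upper 60% of probe sets (0.0487). Both passed with the replicate number as a block (AES24h 0.00842, AES 0.0224).

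The ACS call on ADAMTS7 at 2 h was lost without ACS array 2 (adjusted p = 0.0986) or 3 (0.0885), without control array 1 (0.108) or 4 (0.0572), and with the spread estimated from just the compared groups (0.0703). Serum and IL-1β alone differed little at 2 h, with a mean difference of −0.01 (95% interval −0.27 to 0.25) that ran from −0.12 to 0.05 with 1 array left out.

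With AES, ADAMTS7 was higher at 48 h than at 2 h by 0.79 (SE 0.16, limma adjusted p = 0.00529), with the 2 times not overlapping, a call lost without AES arrays 2 and 4 at 48 h (0.52, adjusted p = 0.253) and with the spread estimated from just the compared groups (adjusted p = 0.23). AES24h differed by 0.54 (adjusted p = 0.0785). That difference passed with array weights (0.0457), median centring (0.0473) and the replicate number as a block (0.00802). ACS differed by 0.40 (adjusted p = 0.264) and IL-1β alone by −0.17. The mean serum effect was 0.74 larger at 48 h than at 2 h (95% interval 0.38 to 1.11), and this difference between the times did not pass over all probe sets (limma adjusted p = 0.14). It passed with array weights (adjusted p = 0.0377) and with the replicate number as a block (0.00896).

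ADAMTS12, which also cuts COMP, had its lowest mean with ACS at 48 h. AES arrays read 6.89, 7.07, 7.58 and 6.83, AES24h arrays 7.16, 7.55, 7.88 and 6.64, and ACS arrays 6.47, 7.17, 6.53 and 6.46. With IL-1β alone the arrays read 8.04, 7.84, 7.37 and 6.77, against 8.10, 7.91, 7.57 and 8.01 in control. The ACS arrays lay wholly below control, while AES, AES24h and IL-1β alone overlapped control at AES array 3, AES24h array 3 and IL-1β arrays 1 and 2.

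Against control, ADAMTS12 fell with ACS, at a log2 fold change of −1.24 or 2.37-fold lower (SE 0.27, limma adjusted p = 0.00329), a call that held without any 1 array. AES gave −0.81 (adjusted p = 0.0582), AES24h −0.59 (adjusted p = 0.365) and IL-1β alone −0.40 (adjusted p = 0.682). The AES difference passed without AES array 3 (adjusted p = 0.024) or control array 3 (0.0445). It also passed with median centring (0.0298), the replicate number as a block (0.03), the upper 60% of probe sets (0.039), the spread from just the compared groups (0.0467) and array weights (0.0485). Against IL-1β alone, ACS gave −0.85 (95% interval −1.39 to −0.30, adjusted p = 0.254), AES −0.41 and AES24h −0.20, not called. The serum mean gave −0.48 (95% interval −0.93 to −0.04, limma adjusted p = 0.533), not called either, with 3 of 12 serum arrays above the mean of IL-1β alone. Array 2 of ACS, at 7.17, stood apart from the other ACS arrays.

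At 2 h, ADAMTS12 averaged 7.05 ± 0.27 with AES, 7.11 ± 0.34 with AES24h and 7.44 ± 0.50 with ACS, against 7.38 ± 0.28 with IL-1β alone and 7.48 ± 0.43 in control (SD, n = 4 each). These groups overlapped, and the differences from control ran from −0.43 with AES to −0.04 with ACS, not called. With ACS the level was 6.66 ± 0.34 at 48 h and 7.44 ± 0.50 at 2 h, a difference of −0.78 (limma adjusted p = 0.176).

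**Figure D3:**
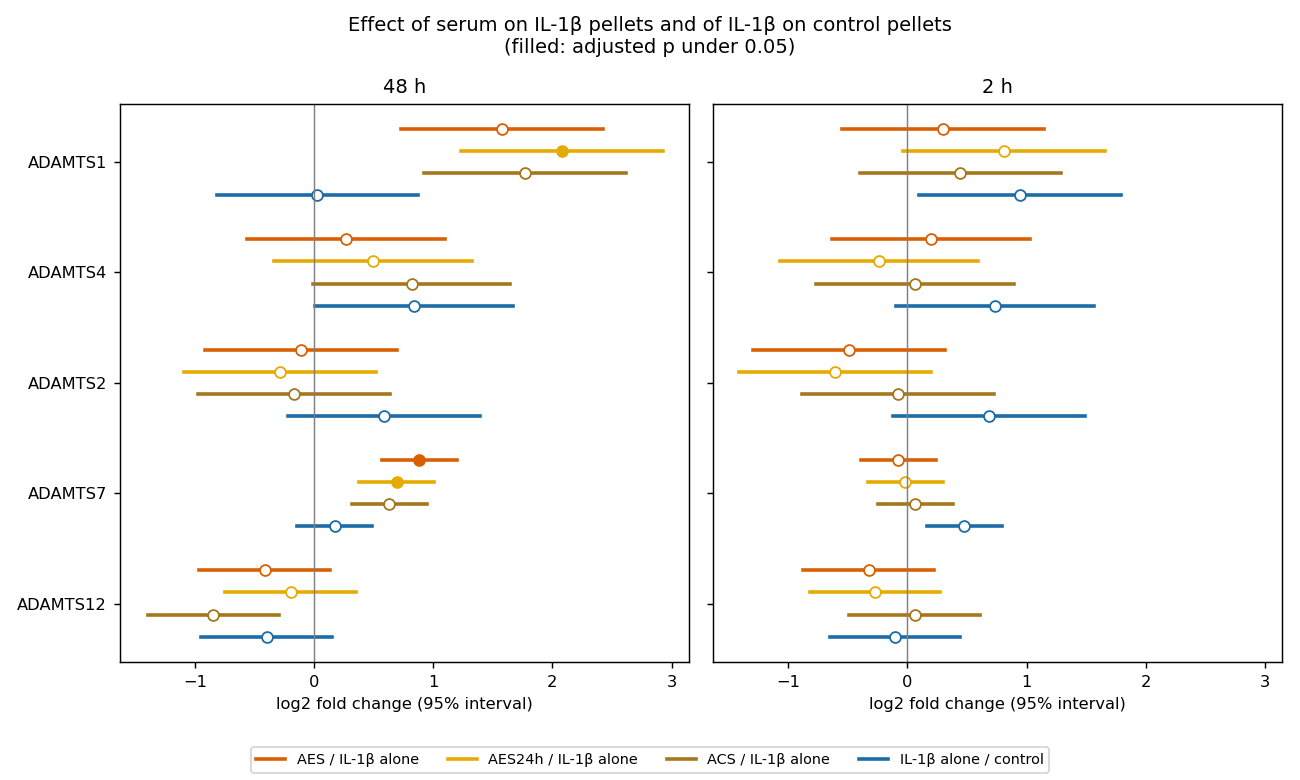
Log2 fold changes (x axis) of the 5 genes for each serum treatment over IL-1β alone and for IL-1β alone over control, at 48 h (left) and 2 h (right). Lines are 95% intervals and filled points passed limma's adjusted p of 0.05. At 48 h the intervals of ADAMTS1 and ADAMTS7 lie above 0 for the 3 serum treatments, and at 2 h the serum intervals of all 5 genes include 0.

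The comparisons with control share the control arrays of a time. At 48 h, limma called 2 of the 5 genes with AES, 2 with AES24h and 4 with ACS, where 7.76%, 3.54% and 3.85% of all probe sets were called. At 2 h the counts were 0, 1 and 2 of 5, where 7.18%, 6.12% and 6.49% were called, and for AES 3 of the 5 had an unadjusted p under 0.05. The median log2 fold change of the 5 genes at 48 h was 1.06 with AES, 0.87 with AES24h and 0.81 with ACS, beside 0.07, 0.02 and 0.02 over all probe sets.

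**Figure D4:**
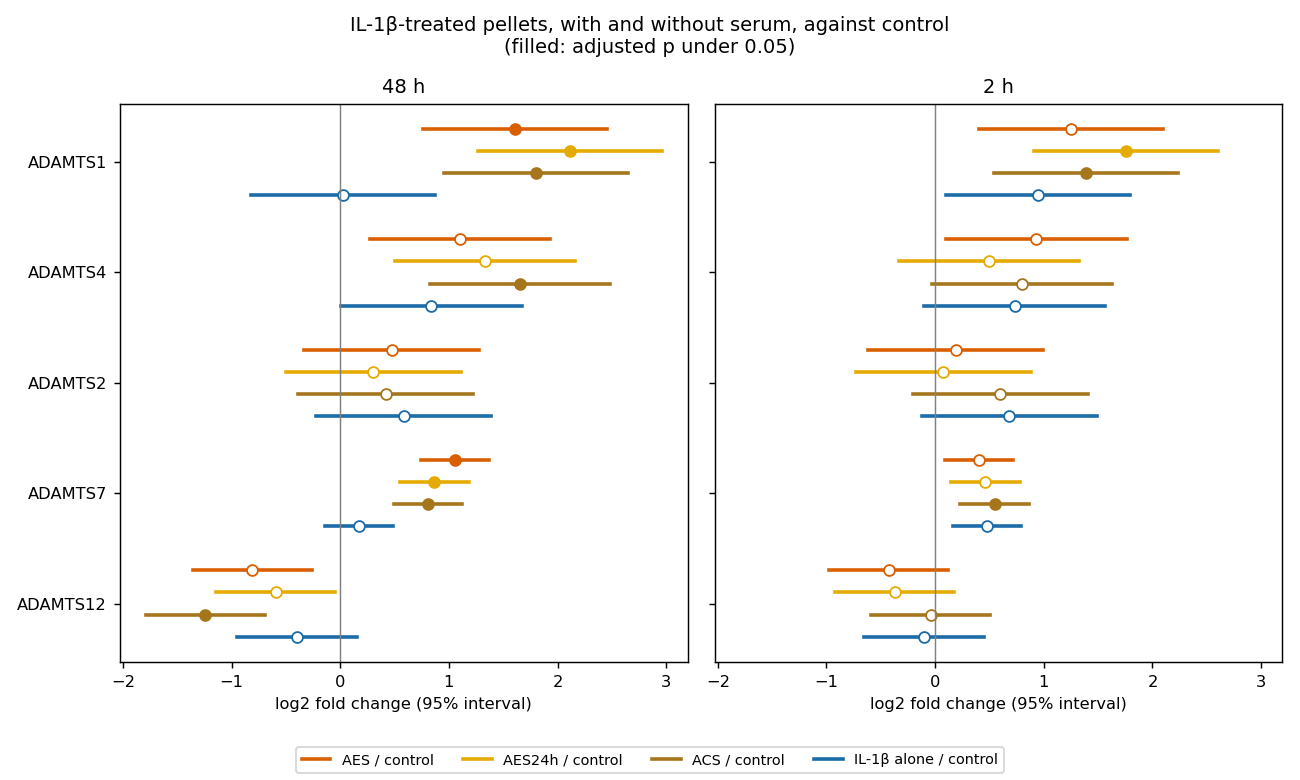
Log2 fold changes (x axis) of the 5 genes over control for the 3 serum treatments and IL-1β alone, at 48 h (left) and 2 h (right), with 95% intervals and filled points past limma's adjusted p of 0.05. ADAMTS1 and ADAMTS7 pass with the 3 serum treatments at 48 h, ADAMTS4 and ADAMTS12 with ACS, and ADAMTS2 in none.

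The 3 serum treatments were set against each other in 3 pairs at each time, and limma called 0 of the 5 genes in any of the 6 pairs. Of all probe sets, 0.00327% were called for AES24h against AES at 2 h and 0% in the other 5 pairs. At an unadjusted p under 0.05 there was 1 difference among the 5 genes, ADAMTS12 with ACS against AES24h at 48 h (−0.65, 95% interval −1.20 to −0.10, adjusted p = 1). The pair differences of ADAMTS1 at 48 h ran from −0.31 to 0.50, with intervals reaching −1.16 and 1.35. Those of ADAMTS4 ran from 0.23 to 0.55 (intervals from −0.60 to 1.38), for ADAMTS7 from −0.25 to −0.06 (−0.57 to 0.26) and for ADAMTS2 from −0.17 to 0.11 (−0.98 to 0.92). At 2 h the pair differences ran from −0.36 to 0.51 for ADAMTS1, −0.44 to 0.30 for ADAMTS4, −0.12 to 0.53 for ADAMTS2, 0.06 to 0.14 for ADAMTS7 and 0.05 to 0.39 for ADAMTS12. A p above the threshold does not show that the treatments act alike, and these intervals at 48 h leave room for differences of more than 1 log2 unit for ADAMTS1, ADAMTS4 and ADAMTS12.

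Between the times, limma called 1 of the 5 genes with AES, where 1.65% of all probe sets were called, and 0 of 5 with AES24h (1.12%), ACS (0.916%), IL-1β alone (0.00654%) or control (0.00327%). At an unadjusted p under 0.05 there were 2 for AES24h, 3 for ACS, 1 for IL-1β alone and 1 for control. For the difference of an effect between the times, 0 of 5 were called with AES (0.00327% of all probe sets), AES24h (0.00654%), ACS (0.00654%), the serum mean (0.0491%) or IL-1β alone (0.00327%). At an unadjusted p under 0.05 there were 2, 2, 3, 2 and 0 of the 5. In this fit a serum effect called at 48 h and not at 2 h was not shown to differ between the times, and the ADAMTS7 serum mean was called under other settings.

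Of 27 ADAMTS and ADAMTS-like genes 25 were measured, and ADAMTS5 moved most. With IL-1β alone it rose over control by 2.32 at 48 h and 2.61 at 2 h (limma adjusted p = 2.82e-07 and 1.41e-08). At 48 h it rose over IL-1β alone by a further 2.86 with AES, 3.36 with AES24h and 2.99 with ACS. Among the 7 large-proteoglycan cleaving members, ADAMTS5 and ADAMTS1 were called higher for the serum mean at 48 h and 0 were lower. Of 3 procollagen N-proteinases ADAMTS3 rose with IL-1β alone over control at 48 h (0.90), and 0 were called with serum over IL-1β alone. Of the 7 other ADAMTS genes 1 fell with IL-1β alone at 2 h, ADAMTS6 (−1.03), and of 6 ADAMTS-like genes limma called 0 in the comparisons of serum with IL-1β alone and of IL-1β alone with control. The median of the 25 genes for the serum mean at 48 h was 0.02, beside −0.01 over all probe sets.

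**Figure D5:**
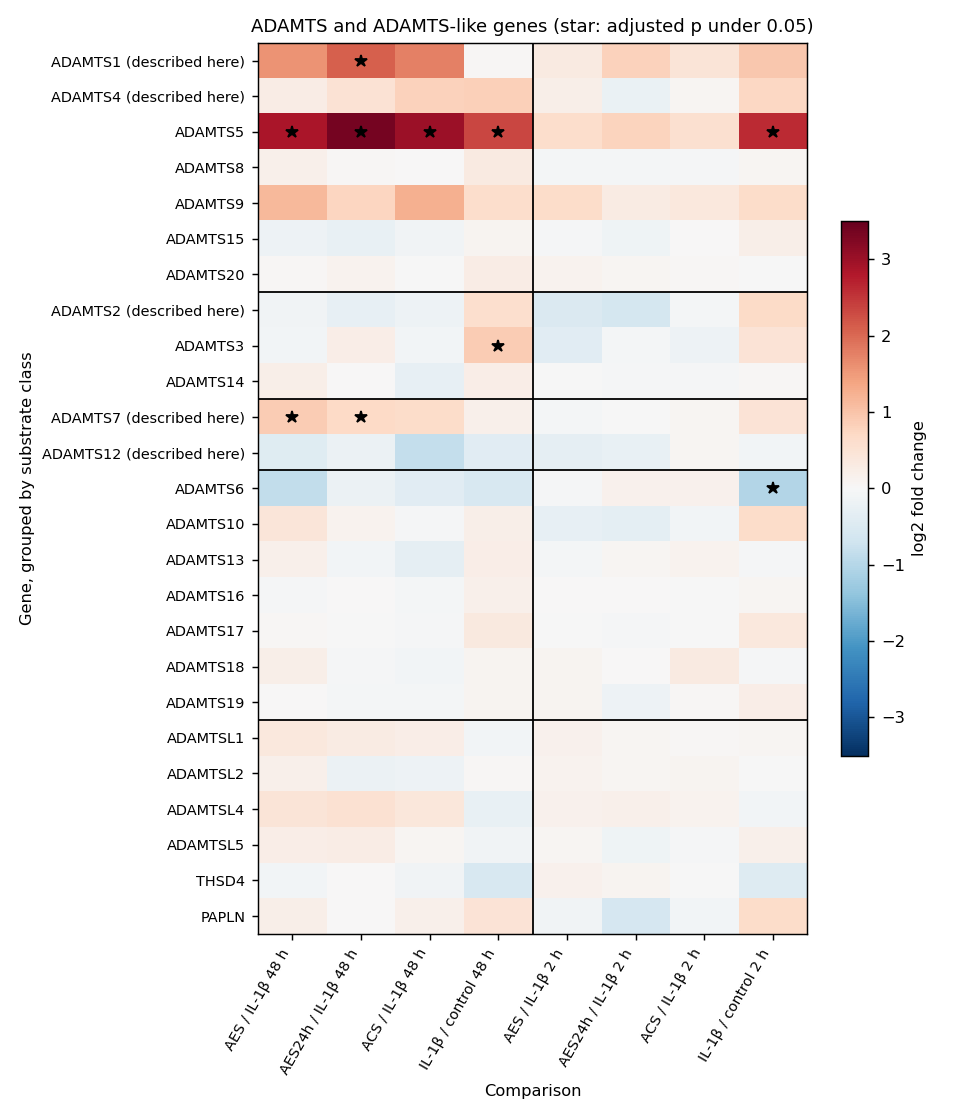
Log2 fold changes (colour) of 25 ADAMTS and ADAMTS-like genes (rows, grouped by substrate) in each serum treatment over IL-1β alone and in IL-1β alone over control at 48 h (left) and 2 h (right). Stars mark limma's adjusted p under 0.05. ADAMTS5 carries stars in 5 of 8 columns, ADAMTS7 in 2, and ADAMTS1, ADAMTS3 and ADAMTS6 in 1 each.

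Aggrecan (ACAN) averaged 8.54 ± 0.77 with AES, 8.74 ± 0.68 with AES24h and 8.53 ± 0.51 with ACS at 48 h, against 10.08 ± 0.36 with IL-1β alone and 11.53 ± 0.41 in control (SD, n = 4 each). It fell with AES against IL-1β alone by 1.54 on the log2 scale (limma adjusted p = 0.0429) and for the serum mean by 1.48 (0.00669), and with IL-1β alone against control by 1.45 at 48 h and by 1.86 at 2 h. The link protein HAPLN1, which ties aggrecan to hyaluronan, fell in the same comparisons except the serum mean, with AES at −1.59. Of 6 large proteoglycan and link genes these 2 were called lower and 0 higher. Neither was called singly with AES24h or ACS against IL-1β alone, though the ACAN mean was as low with ACS (8.53) as with AES (8.54).

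Among 8 fibrillar collagen substrates of ADAMTS2 and its relatives, COL11A1, a chain of a minor cartilage collagen, fell with each serum treatment at 48 h (−1.01 to −0.92). COL2A1, the main cartilage collagen, was lower with IL-1β alone than in control at 48 h by 2.53 on the log2 scale, and its serum differences of −0.56 to −0.19 were not called. COL3A1 rose with IL-1β alone over control at 48 h by 0.40 (limma adjusted p = 0.0413), 1 of the 8 called higher there against 3 lower, while over all probe sets 148 were called higher and 238 lower. COL1A1 was called in 0 of these comparisons, with −0.41 for the serum mean at 48 h. COMP, the substrate of ADAMTS7 and ADAMTS12, averaged 12.30 ± 0.33 with AES, 12.15 ± 0.32 with AES24h and 12.31 ± 0.34 with ACS, against 12.34 ± 0.23 with IL-1β alone and 12.69 ± 0.20 in control at 48 h (SD, n = 4 each). It was not called. Of the 11 genes listed with COMP, FMOD fell with IL-1β alone at both times, MATN3 at 48 h and THBS2 at 2 h, and limma called 0 with serum against IL-1β alone.

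Among 5 inhibitors, TIMP3 rose for the serum mean at 48 h by 1.00 (limma adjusted p = 0.0323). It averaged 10.94 ± 0.41 with AES, 11.49 ± 0.42 with AES24h and 11.47 ± 0.39 with ACS, against 10.30 ± 0.47 with IL-1β alone and 10.62 ± 0.62 in control (SD, n = 4 each). Singly, AES24h gave 1.19 (adjusted p = 0.0766), ACS 1.17 (0.0824) and AES 0.64 (0.425). Of 10 activation, cofactor and uptake genes 0 passed with serum. With IL-1β alone over control the heparan sulfate proteoglycan SDC4 rose by 1.50 at 48 h, and at 2 h the uptake receptor LRP1 rose by 0.84 and the convertase PCSK6 changed by −1.03. Of 16 measured transcription factors, RUNX1, NFKB1, NFKB2 and RELB rose with IL-1β alone at 2 h (0.47 to 0.84), FOS fell at both times, and 0 passed with serum. Over all 30559 probe sets, IL-1β alone against control gave 476 called higher and 904 lower at 2 h, and 148 higher and 238 lower at 48 h.

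Chondrocyte markers were lower with IL-1β alone than in control. The mean of the 13 measured markers at 48 h ran from 6.67 to 7.63 over AES arrays, 6.64 to 7.36 over AES24h arrays and 6.61 to 7.41 over ACS arrays, against 7.15 to 7.53 with IL-1β alone and 7.83 to 9.07 in control. Limma called 8 of the 13 lower with IL-1β alone than in control at 48 h and 4 lower at 2 h. Over all 30559 probe sets, limma called 238 lower at 48 h and 904 lower at 2 h in that comparison. It called ACAN and HAPLN1 lower with AES than with IL-1β alone at 48 h. With AES24h and with ACS it called 0 of the 13 against IL-1β alone at 48 h, and these ranges overlapped. Bone markers, 4 of 5 measured and 2 with means above every array median, averaged 4.87 to 5.22 with AES, 4.91 to 5.30 with AES24h and 4.94 to 5.31 with ACS, against 4.23 to 5.03 with IL-1β alone and 4.11 to 4.72 in control at 48 h. Among markers of leukocytes, endothelium, red cells and platelets, synovial lining, bone, and fat and muscle, limma called CD55, a synovial lining marker, lower with IL-1β alone at 48 h, and 0 with serum against IL-1β alone. The part of these marker shifts in the protease values was not tested.

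By Pearson's r over the 40 arrays, the named genes most like ADAMTS1 were the elongation factor ELL2 (0.832; 0.944 over the 10 group means), RASGEF1B (0.831; 0.899) and the convertase PCSK5 (0.820; 0.870). ADAMTS2 was most like the matrix protein gene FBLN2 (0.880; 0.783), REV3L (0.851; 0.731) and the laminin chain LAMA5 (0.851; 0.718). ADAMTS4 was most like AGTRAP (0.781; 0.960), GRAMD1A (0.758; 0.928) and the nucleotidase NT5C2 (0.748; 0.906).

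ADAMTS7 was most like the angiopoietin ANGPT4 (0.907; 0.957), NHS (0.851; 0.970) and the chromatin remodeller CHD3 (0.831; 0.978). ADAMTS12 was most like INHBE (0.757; 0.842), AIG1 (0.687; 0.736) and the glycyl-tRNA synthetase GARS1 (0.681; 0.811). Among the 5 proteases, r over the 40 arrays ran from −0.51 between ADAMTS1 and ADAMTS12 to 0.50 between ADAMTS2 and ADAMTS7. Arrays of a group share a treatment and arrays of a number may share a source, so these values describe the arrays and are not a test.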

How the data were processed

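Equine chondrocyte pellets were profiled on Affymetrix whole-transcript arrays, 4 in each of 10 groups. The deposited values are log2 signals that look like RMA output, and Affymetrix Expression Console, RMA and limma are named in the submitters' processing notes without versions. RMA makes value distributions alike across arrays, so a shift common to most transcripts would be reduced. The annotation covered 17132 of 30559 probe sets, of which 16789 carried a single symbol and 343 more than 1, and each of the 5 genes had 1 probe set. The table held 0 columns of no sample.

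Groups and replicate numbers came from the sample titles. In limma 3.58.1 (R 4.3.3), a mean per group was estimated from the 40 arrays together, leaving 30 degrees of freedom plus 4.62 from the prior, with an intensity trend and no replicate term. Tests of 32 comparisons were two-sided, and Benjamini-Hochberg adjusted p under 0.05 counted as called. Fold changes are log2 differences, and intervals are at 95%. The fit was tested on simulated data with independent noise on each array, which does not cover deviations shared by arrays of the same number.

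The 5 genes, the lists and the alternatives were chosen with earlier results of these data known. Beside the 5 genes, ADAMTS5, ACAN, COMP, COL1A1, COL2A1 and TIMP3 were named in any case, together with at most 5 called genes per list and the 3 genes most like each protease. Replicate numbers were not taken as pairs: of 180 pairs of same-numbered arrays, 98 deviated together at a correlation over 0.1 (range −0.13 to 0.52, median 0.11), although 36 of 40 arrays were closest to their own number. No array pair held identical values (0 found). Alternatives were the number as a block, quantile normalisation again, median centring, the upper 60% of probe sets by mean, no trend, array weights, the spread from the groups compared and each array left out. Leaving out AES arrays 2 and 4 at 48 h was added after seeing the data, from an earlier account.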

Additional observations from a re-analysis of the deposited data

Results flagged for a closer look

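One value stood apart from its group. ADAMTS12 in ACS array 2 at 48 h read 7.17, and its gap to the next array took up 0.906 of the range of its 4 arrays, above Dixon's 95% critical value for 4 samples. Of 50 groups of 4 arrays tested for the 5 genes 1 was found so, and chance gives about 1 in 20. Without that array, as with every other array left out in turn, ADAMTS12 stayed lower with ACS than in control at 48 h (−1.41 to −1.18).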

How the results depend on the processing

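The counts below cover 73 chosen results of the 5 genes, not every result of the 32 comparisons. Each serum against IL-1β alone at 2 h was left out, as were most serum pairs, time comparisons and differences between the times. Of the 73, 17 were called, and 17 of 17 kept their call with the replicate number as a block, renewed quantile normalisation, the upper 60% of probe sets, no trend and array weights. New calls numbered 11 with the block, 9 with array weights, 8 in the upper 60% of probe sets, 3 with renewed quantile normalisation, 3 with median centring, 2 with the spread from the groups compared, 6 with some array left out and 0 without the trend. Median centring took 1 call away (ADAMTS1, ACS over control at 2 h, 1.33). It also turned ADAMTS4, serum mean over IL-1β alone at 2 h, to −0.0026 and ADAMTS1, IL-1β alone over control at 48 h, to −0.033, which renewed quantile normalisation put at −0.014. The spread from the groups compared took away 5, namely ADAMTS7 with ACS over control at 2 h (0.55), AES over IL-1β alone (0.88) and AES24h over IL-1β alone (0.69) at 48 h and AES at 48 h over 2 h (0.79), and ADAMTS4 with ACS over control at 48 h (1.66). Without AES arrays 2 and 4 at 48 h, chosen after seeing the data, 3 of 6 calls were lost, ADAMTS7 with AES over IL-1β alone (0.61) and at 48 h over 2 h (0.52), and ADAMTS1 with AES over control (1.63). The causes were not tested.

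With each array left out in turn 11 of 17 calls held. The 6 lost at some array ranged, at 48 h, from 1.83 to 2.30 for ADAMTS1 and 0.59 to 0.77 for ADAMTS7 with AES24h over IL-1β alone, 1.43 to 1.80 for ADAMTS1 with AES and 1.27 to 1.95 for ADAMTS4 with ACS over control. At 2 h they ranged from 1.07 to 1.60 for ADAMTS1 and 0.48 to 0.63 for ADAMTS7 with ACS over control. Signs turned in 11 uncalled results. These were at 48 h ADAMTS2 with AES (−0.31 to 0.16), AES24h (−0.48 to 0.084) and ACS (−0.38 to 0.25) over IL-1β alone, ADAMTS12 with AES24h over IL-1β alone (−0.44 to 0.028) and ADAMTS1 with IL-1β alone over control (−0.15 to 0.17). At 2 h they were ADAMTS2 with AES (−0.14 to 0.50) and AES24h (−0.26 to 0.31) over control, ADAMTS12 with ACS (−0.25 to 0.15) and IL-1β alone (−0.26 to 0.092) over control, and ADAMTS4 (−0.14 to 0.23) and ADAMTS7 (−0.12 to 0.052) for the serum mean over IL-1β alone.

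The new calls with the replicate block included ADAMTS7 with IL-1β alone over control at 2 h (0.48, limma adjusted p = 0.00803), with ACS over IL-1β alone at 48 h (0.63, limma adjusted p = 0.0043) and for the serum effect at 48 h minus 2 h (0.74, adjusted p = 0.009), and 36 of 40 arrays deviated most like their own number. Over all probe sets the block called 460 against 135 for AES, 215 against 69 for AES24h, 246 against 80 for ACS and 518 against 224 for the serum mean over IL-1β alone at 48 h, 696 against 386 for IL-1β alone over control at 48 h, and 42 against 14 for the serum mean at 2 h. Array weights lowered the count for AES over IL-1β alone at 48 h to 120 against 135. They gave 146 for AES24h, 152 for ACS, 432 for the serum mean and 757 for IL-1β alone over control at 48 h. At 2 h they gave 33 for the serum mean and 2260 against 1380 for IL-1β alone over control. For AES over IL-1β alone at 48 h, renewed quantile normalisation gave 223, the upper 60% of probe sets 230 and median centring 87. Between the times the block called 1282 against 505 with AES, 810 against 341 with AES24h and 678 against 280 with ACS, and for the serum effect at 48 h minus 2 h 77 against 15, while array weights called 164 with AES, 14 against 2 with IL-1β alone and 53 against 1 in control. A mean over several probe sets of a gene gave no value, since each gene had 1.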
